A study of Mus musculus with 17 samples.

Results

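The 9 genes described here carry or answer growth signals in epithelia: the receptors Egfr, Erbb2, Erbb3, Met, Igf1r and Insr and the ligands Areg, Ereg and Btc. They were chosen by name, as receptor tyrosine kinases of the gut epithelium and EGF-family ligands. No rule on their values was used, but earlier results of these data were known. All 9 are among the 53278 gene symbols of the deposited table. Of these, 8 passed a filter on low values that asked for 1 TPM or more in 2 or more libraries and left 15066 genes for testing; Ereg did not pass and is described without a test. RNA came from EpCAM+ CD45- Ter119- cells sorted from the small intestine of C57BL/6 mice, which were all Igha -/+ and so carried 1 working copy of the gene for IgA, the antibody of milk and mucosae. Pups were nursed either by a C57BL/6 dam (B6 dam), whose milk supplies IgA, or by an IgA -/- dam (IgA-null dam), and were studied at 14, 24 and 42 days of life. There were 3 libraries per group and 2 for B6 dam day 24, 17 in all. The comparison asks what maternal IgA changes in the growing epithelium. Litters are not given in the labels, so p-values measure only the spread between these samples.

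EGF-family ligands are made as membrane proteins, cut loose at the cell surface, and bind receptors of the ErbB family, which then pair and activate the ERK and PI3K pathways. EGFR binds amphiregulin (Areg), epiregulin (Ereg) and betacellulin (Btc). ERBB2 has no known ligand and acts as the preferred partner of the others, and ERBB3 binds neuregulins, has little kinase activity of its own and signals by pairing. MET is the receptor of hepatocyte growth factor, IGF1R that of the insulin-like growth factors and INSR that of insulin. In the intestine these receptors are known for crypt cell proliferation, repair after injury and, around weaning, growth driven by factors in milk and from the underlying stroma.

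The values are TPM, transcript abundances set to a fixed total per library and corrected for gene length. That allows comparing the levels of different genes as far as the lengths used are right. A single predicted gene, Gm23935, held 40.2% to 61.9% of the TPM total and mitochondrial genes a further 13.7% to 34.6%, so the total left for other genes differed between libraries. Each result is therefore given as deposited and again as scaled TPM, which is TPM divided by a median-of-ratios size factor (0.48 to 1.84 over the libraries). Scaling moved the all-gene median of the log2 fold changes from 0.33 to -0.01 for the dam comparison at day 14 and from -0.38 to -0.03 at day 24. With the IgA-null dam it moved from -1.02 to -0.02 for day 14 to 24, from 0.53 to 0.01 for day 24 to 42 and from -0.48 to -0.02 for day 14 to 42. With the B6 dam these medians were -0.29 and 0.01, 0.12 and -0.03, and -0.17 and -0.01. Reads recovered from the TPM values numbered 8242877 to 17637915 per library. Markers of the sorted cells led: the summed level of 7 epithelial genes, Epcam among them, was 843 to 3170 TPM, while 7 fibroblast and smooth muscle genes summed to 0.505 TPM at most, 5 endothelial genes to 0.676 and 11 leukocyte genes to 0.27 to 10.8, highest at day 14 with the B6 dam. Of the other lists, 5 erythroid genes summed to 0.35 to 34.1 TPM, the most in the IgA-null dam group of day 24, and 5 genes of enteric neurons and glia to 0.0111 to 3.08, the most at day 14. The labels carry a date in each sample's code. The day 42 groups shared a date, as did days 24 and 42 of the IgA-null dam. In every other comparison the date and the groups cannot be told apart. Each code also opens with a letter of unexplained meaning, F for the IgA-null dam and M for the B6 dam. That letter and the dam cannot be told apart at any age, day 42 included.

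Erbb3 (chr10:128567523-128589652, minus strand, GRCm38, as are all gene positions here) was the highest of the 6 receptors in all 17 libraries. With the B6 dam it stood at 39.7, 42.5 and 37.6 TPM at day 14, at 32.1 and 36.2 at day 24 and at 42.4, 43.9 and 48 at day 42. In pups of the IgA-null dam the values were 43.1, 32.7 and 42.6 TPM, then 37.2, 24.6 and 19, then 44.3, 43.1 and 36.2. As deposited the lowest were replicates 2 and 3 of the IgA-null dam at day 24, while replicate 1 lay above both B6 dam libraries of that day. After scaling, the order of ages turned round for the IgA-null dam: 26.2, 23.2 and 23.2 scaled TPM at day 14 lay below 51.6, 45.3 and 39.6 at day 24 and below 40.2, 40.9 and 36.7 at day 42. No day 14 library of the IgA-null dam reached a later one on that scale.

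Erbb2 (chr11:98412470-98437716, plus strand) came next, below Erbb3 and above the other 4 receptors in every library. It measured 22.3, 21.2 and 22.5 TPM at day 14, 17.3 and 15.7 at day 24 and 18.3, 20.7 and 21.4 at day 42 with the B6 dam. Among IgA-null dam pups it measured 30.3, 22.3 and 30.2 TPM, then 20.7, 11.6 and 8.69, then 20.1, 18.4 and 17.8. The libraries of the IgA-null dam at day 24 spread most, over 8.69 to 20.7 TPM. Scaled, Erbb2 ranged over all libraries from 15.8 to 28.7, and the ages overlapped with both dams.

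Egfr (chr11:16752203-16918158, plus strand), which binds all 3 ligands, stood at 0.0335 to 0.126 of the Erbb3 level in the same library. With the B6 dam it stood at 4.29, 3.75 and 4.73 TPM at day 14, 2.78 and 1.74 at day 24 and 2.01, 2.85 and 3.33 at day 42. With the IgA-null dam it stood at 4.25, 3.9 and 4.94 TPM, then 1.25, 1.15 and 1.31, then 3, 2.92 and 2.66. The 6 day 14 libraries were above the 11 later ones. Scaled, the B6 day 14 libraries (3.09 to 3.99) stayed above every other library, while those of the IgA-null dam at day 14 (2.58 to 2.77) lay among the later ones. Erbb4, the remaining receptor of the family, did not exceed 0.00556 TPM in any library.

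Met (chr6:17463800-17573980, plus strand) was low in 1 group as deposited. Its B6 dam values were 5.22, 6.1 and 5.44 TPM at day 14, 5.39 and 5.03 at day 24 and 4.58, 6.11 and 7.07 at day 42. Its IgA-null dam values were 5.86, 5.78 and 7.42 TPM at day 14, 2.61, 2.36 and 2.1 at day 24 and 6.22, 6.84 and 5.95 at day 42. All 3 libraries of the IgA-null dam at day 24 lay below every other library. On the scaled values they (3.61, 4.34 and 4.38) overlapped with the day 14 libraries of the same dam (3.56, 4.1 and 4.03), and both sets lay below every library of the B6 dam and every day 42 library.

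Igf1r (chr7:67952827-68233668, plus strand) read 3.28, 3.55 and 4.51 TPM at day 14, 2.3 and 0.871 at day 24 and 1.23, 2.98 and 3.33 at day 42 with the B6 dam. In pups of the IgA-null dam it read 3.43, 3.84 and 4.6 TPM, then 1.15, 0.805 and 0.86, then 2.89, 2.5 and 2.68. Within the B6 dam groups, replicate 2 of day 24 and replicate 1 of day 42 were the low ones. Both also had the lowest summed level of 6 stem cell markers of their group (303 TPM against 975, and 495 against 734 and 949). Scaled, the gaps were smaller, with sums of 449 against 898, and 639 against 704 and 758. Igf1r itself read 1.29 against 2.12 scaled TPM, and 1.59 against 2.86 and 2.66. The library lowest in Igf1r was also lowest in that sum at day 14 with the IgA-null dam. As deposited, it was not at day 14 with the B6 dam, nor at days 24 and 42 with the IgA-null dam. Scaled, it was also lowest in the sum at day 42 with the IgA-null dam (Igf1r 2.37, sum 795). Olfm4 alone ran from 267 to 898 TPM over all libraries, and the sum from 297 to 975, so the sum is mostly Olfm4. The part of these markers in the Igf1r values was not tested. In RNA from sorted cells, fewer cells of a type and less RNA per cell cannot be told apart.

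Insr (chr8:3122061-3279617, minus strand) read 5.73, 7.26 and 5.72 TPM at day 14, 3.32 and 3.41 at day 24 and 4.1, 4.67 and 5.32 at day 42 with the B6 dam. Among IgA-null dam pups it read 7.76, 5.91 and 8.36 TPM, then 2.92, 2.23 and 2.11, then 4.91, 4.75 and 4.28. All day 14 libraries lay above all later ones. After scaling the ages overlapped with both dams, and all 17 libraries lay between 3.05 and 5.98.

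**Figure D1:**
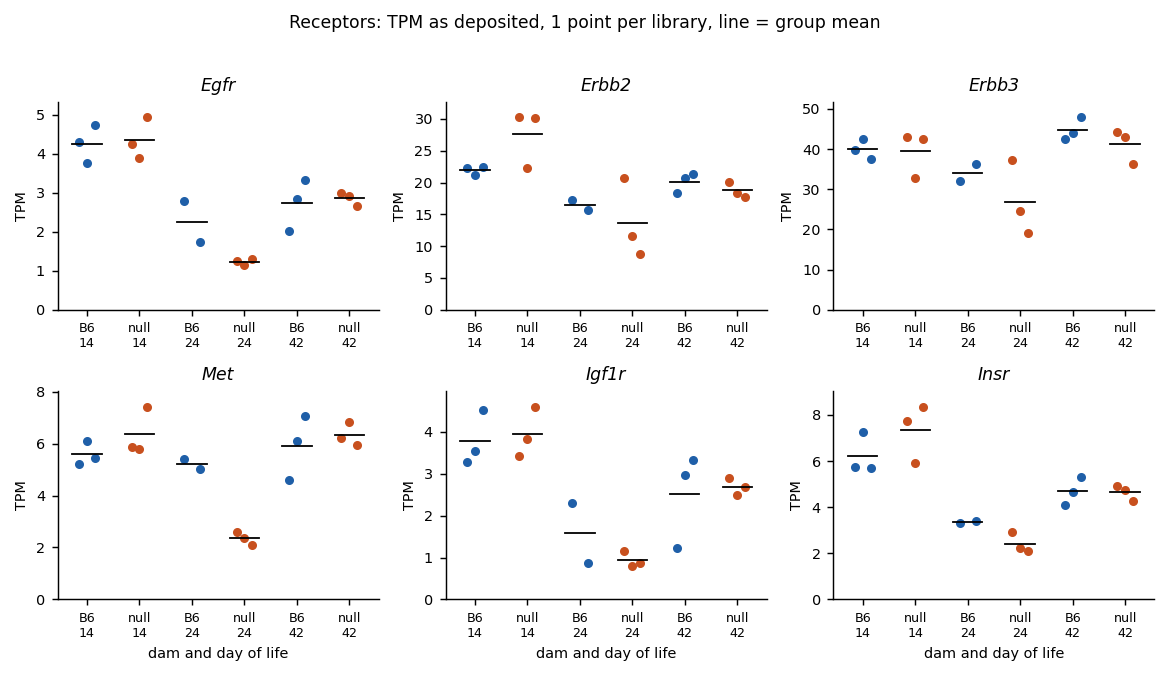
TPM as deposited (y axis) of the 6 receptors by dam (B6, or null for the IgA-null dam) and day of life (x axis), with 1 point per library and a line at the group mean. Met is low only in the day 24 libraries of the IgA-null dam (2.1 to 2.61 TPM), while Egfr and Insr are highest in the 6 day 14 libraries.

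**Figure D2:**
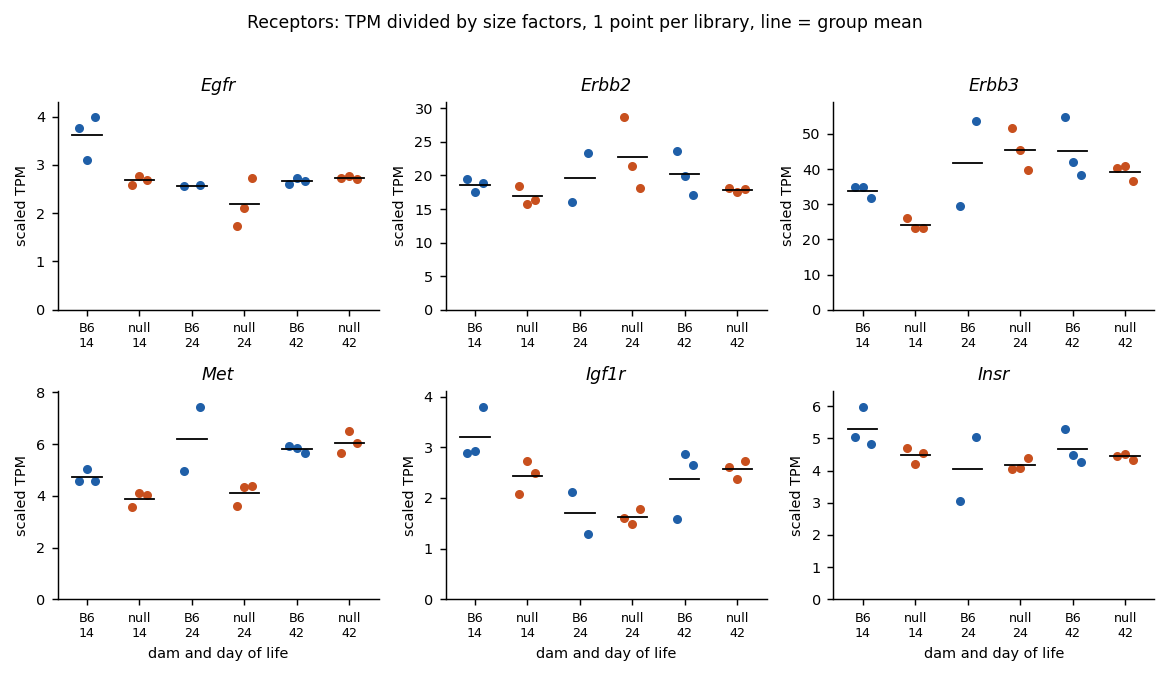
The same receptors as scaled TPM (y axis) by dam and day of life (x axis), 1 point per library and a line at the group mean. Erbb3 at day 14 with the IgA-null dam (23.2 to 26.2) is the lowest group, and Insr overlaps between ages.

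The order of the levels was steady at the top and loose at the bottom. Erbb3 took 43.4% to 58.4% of the summed TPM of the 6 receptors, with a median of 54.1%, and Erbb2 a median of 25.6%. Met exceeded Insr in 9 of 17 libraries, and their order changed with the group: Insr was the higher in all 6 day 14 libraries and Met in all 6 day 42 libraries and both of B6 dam day 24. In the IgA-null dam libraries of day 24 the order of Met and Insr was mixed. Insr exceeded Egfr in 17 of 17, and Egfr exceeded Igf1r in 15 of 17, with ratios over all libraries of 0.957 to 2. Orders this close rest on the gene lengths used, 16791 bases of exons for Igf1r and 11326 for Egfr. In replicate 1 of B6 dam day 14, Igf1r had more reads than Egfr (802 against 708) and less TPM. A ratio of receptors within a library does not depend on the scaling, and 4 of them set the 6 day 14 libraries apart from all later ones. These 4 were picked out from the ratios of all pairs of the 6 receptors. The share of other gene pairs that separate the ages in this way was not computed. Erbb3 to Insr was 5.1 to 6.94 at day 14 and 8.45 to 12.8 later, and Erbb3 to Igf1r 8.34 to 12.6 and 13.5 to 41.6. Met to Igf1r was 1.21 to 1.72 at day 14 and 2.05 to 5.78 later. Egfr to Erbb3 was 0.0883 to 0.126 at day 14 and at most 0.0868 later. Met to Insr was 0.756 to 0.979 in the 6 day 14 libraries, 1.48 to 1.63 (B6 dam) and 0.894 to 1.06 (IgA-null dam) at day 24, and 1.12 to 1.44 at day 42. Erbb2 to Erbb3 at day 14 was 0.681 to 0.708 with the IgA-null dam and 0.499 to 0.598 with the B6 dam. At days 24 and 42 the ratio of Erbb2 to Erbb3 overlapped between the dams. These ratios are descriptions with no test.

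RefSeq promoter windows, 250 bases before and 50 after the start (GRCm38.p6), were at hand for 6 of the 9 genes. Those of Met and Igf1r are shown because these receptors passed a test after scaling and lie among the most GC-rich of all promoters. The Met window (chr6:17463707-17464006, plus strand) is 75.7% G and C, above 96.7% of the 32851 windows, and the Igf1r window (chr7:67952007-67952306, plus strand) is 76%, above 96.9%. Capitals mark GC boxes (GGGCGG, the site of SP1-type factors) and AP-1 sites (TGANTCA, the site of FOS and JUN), searched on both strands.
Met: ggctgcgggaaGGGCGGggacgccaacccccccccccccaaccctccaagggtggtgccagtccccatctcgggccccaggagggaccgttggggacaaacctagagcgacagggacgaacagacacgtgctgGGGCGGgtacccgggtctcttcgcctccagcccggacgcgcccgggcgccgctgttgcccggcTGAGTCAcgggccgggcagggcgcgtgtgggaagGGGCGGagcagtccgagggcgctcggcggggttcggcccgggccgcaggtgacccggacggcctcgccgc
Igf1r: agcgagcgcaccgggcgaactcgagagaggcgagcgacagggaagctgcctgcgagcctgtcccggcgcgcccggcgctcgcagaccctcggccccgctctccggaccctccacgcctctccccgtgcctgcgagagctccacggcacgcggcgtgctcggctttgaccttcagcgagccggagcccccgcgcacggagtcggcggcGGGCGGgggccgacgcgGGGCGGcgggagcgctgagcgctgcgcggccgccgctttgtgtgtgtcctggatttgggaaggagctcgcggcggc
Positions are those of the motif's leftmost base, counted from the start as position 1 with negative numbers before it. Met held GC boxes at -239, -117 and -20 and an AP-1 site at -54, and Igf1r held GC boxes at -43 and -26. A GC box occurred in 35.7% of all windows and an AP-1 site in 7.81%. Egfr held 1 GC box at -9, and Erbb2 held none of the motifs searched.

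The 3 ligands were low. They lie in 1 cluster on chromosome 5, in the order Epgn, Ereg, Areg and Btc over 375531 bases, with Ereg (chr5:91074622-91093646) and Areg (chr5:91139599-91148432) on the plus strand and Btc (chr5:91357261-91402994) on the minus strand. Epgn, epigen, reached 0.23 TPM at most. The start of Ereg overlaps an antisense gene, Gm19610, which reached 0.262 TPM, and reads from the overlap cannot be assigned to a strand here.

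Areg spanned the widest range of the 8 tested members, from 0.0808 to 11.4 scaled TPM, a ratio of 141. With the B6 dam it stood at 2.66, 4.84 and 1.05 TPM at day 14, 0.754 and 7.67 at day 24 and 2.14, 0.667 and 0.704 at day 42. With the IgA-null dam it stood at 5.21, 3.66 and 3.34 TPM, then 1.1, 0.355 and 1.4, then 0.089, 0.53 and 0.521. The 2 B6 dam libraries of day 24 lay far apart, with 21 and 227 reads. At day 42 the 3 libraries of the IgA-null dam, with 2, 13 and 14 reads, were all below the 3 of the B6 dam, with 60, 16 and 16 reads.

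Ereg rested on 0 to 57 reads. With the B6 dam the libraries held 3, 0 and 6 reads at day 14, 9 and 57 at day 24 and 53, 3 and 4 at day 42. In pups of the IgA-null dam they held 11, 8 and 10 reads, then 10, 13 and 5, then 13, 13 and 29. The value of 0 allows up to 3 reads at this depth. Replicate 2 of B6 dam day 24 (0.567 TPM) and replicate 1 of B6 dam day 42 (0.558 TPM) stood far above the other libraries of their groups. At day 14 the IgA-null dam libraries (0.187 to 0.276 TPM) were above those of the B6 dam (0 to 0.0972 TPM) without overlap, also after scaling; libraries did not overlap for 46.2% of the tested genes in that comparison as deposited and 31.1% scaled.

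Btc was more even. It read 0.714, 1.26 and 1.1 TPM at day 14, 0.695 and 0.354 at day 24 and 0.721, 0.93 and 0.65 at day 42 with the B6 dam. Among IgA-null dam pups it read 1.49, 0.961 and 1.79 TPM, then 0.415, 0.396 and 0.247, then 0.766, 0.646 and 0.83. Its reads numbered 23 to 83 per library, and after scaling all libraries lay between 0.514 and 1.04.

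**Figure D3:**
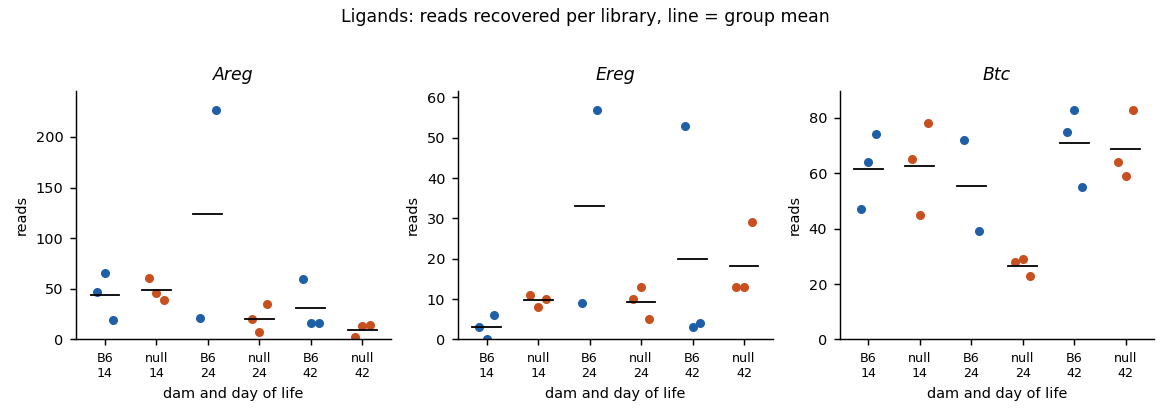
Reads recovered per library (y axis) for Areg, Ereg and Btc by dam and day of life (x axis), 1 point per library and a line at the group mean. Areg and Ereg are set apart in replicate 2 of B6 dam day 24 (227 and 57 reads), and Btc stays within 23 to 83 reads.

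Promoters of the neighbouring ligands Areg and Btc are shown because their levels differed so much in evenness. Capitals mark a TATA box (TATAAA), a cAMP response element (TGACGTCA, the site of CREB-type factors) and GC boxes, searched on both strands; no hits overlapped. The windows are chr5:91139349-91139648, plus strand, and chr5:91402945-91403244, minus strand.
Areg: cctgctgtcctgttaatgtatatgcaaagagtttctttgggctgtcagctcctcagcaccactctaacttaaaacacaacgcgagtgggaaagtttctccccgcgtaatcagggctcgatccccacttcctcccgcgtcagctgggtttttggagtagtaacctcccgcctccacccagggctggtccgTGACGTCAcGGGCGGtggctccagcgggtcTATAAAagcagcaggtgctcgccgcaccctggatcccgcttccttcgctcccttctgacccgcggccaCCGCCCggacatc
Btc: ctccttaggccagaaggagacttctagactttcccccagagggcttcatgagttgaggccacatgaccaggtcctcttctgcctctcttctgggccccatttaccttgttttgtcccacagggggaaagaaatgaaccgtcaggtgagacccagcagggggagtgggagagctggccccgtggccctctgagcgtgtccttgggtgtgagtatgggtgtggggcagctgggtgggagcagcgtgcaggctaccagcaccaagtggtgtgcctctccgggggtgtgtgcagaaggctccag
Areg held the cAMP response element at -61, a GC box at -52, the TATA box at -31 and a further GC box at 38. Of all windows, 1.79% held the cAMP response element and 13.6% the TATA box. None of the motifs searched, the AP-1 site included, was found in the Btc window. Their G and C content was near alike, 59.3% for Areg and 60.3% for Btc. A match describes the letters only.

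The 2 libraries that stood out for Areg and Ereg stood out for other genes too. Hbegf, a further EGFR ligand, read 7.23 scaled TPM in replicate 2 of B6 dam day 24 against 1.81 in replicate 1, and 6.36 in replicate 1 of B6 dam day 42 against 1.51 and 1.78. Dusp6, a phosphatase that ERK induces and that acts back on ERK, read 15.8 against 2.12 scaled TPM at day 24 and 7.09 against 1.3 and 1.88 at day 42. The summed level of 7 enterocyte markers was 11400 against 1120 scaled TPM at day 24 and 5120 against 533 and 1200 at day 42. Over all libraries it ran from 476 to 10500 TPM as deposited, highest at day 14 with the B6 dam. In other libraries these levels did not always go together. Replicate 3 of IgA-null dam day 42 read 5.97 scaled TPM for Hbegf at an enterocyte sum of 483. Replicates 1 and 2 of B6 dam day 14 read 1.44 and 1.97 for Dusp6 at sums of 7490 and 8610. Other scaled marker sums also differed in replicate 2 of B6 dam day 24 and replicate 1 of B6 dam day 42. The leukocyte sum was 2.03 against 0.249, and 4.23 against 0.32 and 0.803. The Paneth sum was 980 against 591, and 11100 against 808 and 2000. Stem cell sums were 449 against 898, and 639 against 704 and 758. Enteroendocrine sums were 617 against 768, and 278 against 702 and 1110. The part of the enterocyte and other markers in the ligand values was not tested.

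**Figure D4:**
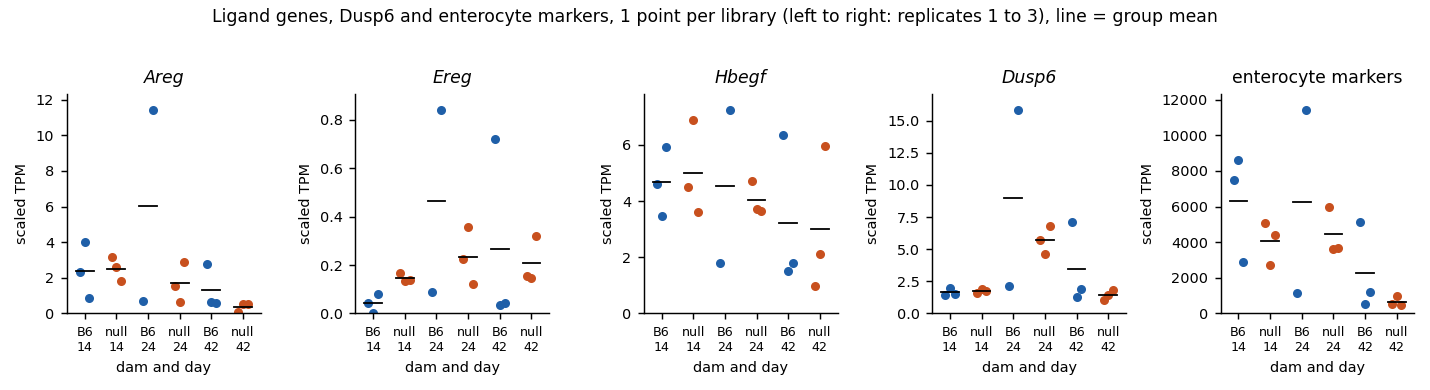
Scaled TPM (y axis) of Areg, Ereg, Hbegf and Dusp6 and the summed scaled TPM of 7 enterocyte markers by dam and day (x axis), 1 point per library in replicate order and a line at the group mean. Replicate 2 of B6 dam day 24 is the highest point in every panel (11.4 for Areg, 15.8 for Dusp6).

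Of the other EGF-family ligands, Tgfa ran from 0.515 to 1.88 TPM and Hbegf from 1.07 to 9.72, so that Hbegf had the highest median of the ligands measured (4.2 TPM against 1.1 for Areg). Egf stayed between 0.0656 and 0.414 TPM, and Nrg4, a ligand of ERBB4, between 0.225 and 1.19. Ligands of the other receptors were low in the sorted epithelium. Hgf did not exceed 0.159 TPM and Igf1 0.0203 TPM. Nrg1, which binds ERBB3, reached 0.0685 TPM.

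Between pups of the 2 dams, no member passed the test at any age. As deposited the smallest adjusted p was that of Met at day 24, and scaled that of Egfr at day 14. At day 14 limma called 0 of 8 members, while 8.68% of all tested genes passed (scaled 2.97%). No member had an unadjusted p under 0.05 as deposited and 2 had one after scaling, Egfr and Erbb3. Scaled, the libraries of Egfr, Erbb3, Met, Igf1r and Insr lay lower with the IgA-null dam without overlap, against 31.1% of all genes not overlapping in either direction. Markers of secretory cells were higher with the IgA-null dam in this comparison: 6 of 6 goblet markers (scaled 5, median 1.77) and 6 of 6 enteroendocrine markers (scaled 6, median 2.09) were called. Of the tested Paneth markers 2 of 6 were called higher (scaled 1) and of the tuft markers 3 of 5 (scaled 2). The summed goblet level was 331 to 481 TPM with the B6 dam and 1420 to 2550 in IgA-null dam pups, and the enteroendocrine sum 138 to 153 and 836 to 1220. Their part in the receptor values was not tested. Of the receptors, Egfr had a log2 fold change of -0.32 ± 0.10 (SE, adjusted p = 0.11) and Erbb3 of -0.47 ± 0.19 (adjusted p = 0.18). As deposited the same 2 differences were 0.03 and -0.03. Limma-voom on the recovered reads called 0 members at day 14, beside 5.29% of all genes with library sizes from total reads and 3.09% with median-of-ratios sizes.

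At day 24 Met stood at 5.21 ± 0.255 TPM (SD, n = 2) with the B6 dam and 2.36 ± 0.253 (SD, n = 3) with the IgA-null dam. Its log2 fold change was -0.89 ± 0.18 (SE), with a limma adjusted p of 0.059, and scaled it was -0.48 ± 0.13 with an adjusted p of 0.26. The libraries did not overlap on either scale. As deposited, Egfr and Insr did not overlap either, as did 34.8% of all genes (scaled 16%, with Met the only member). Limma called 0 of 8 members at day 24 and 0.0265% of all genes (scaled 0%). Met and Egfr had an unadjusted p under 0.05 as deposited and Met alone after scaling. Limma-voom on the recovered reads called 3 members (Egfr, Insr and Met) with library sizes from total reads, beside 25.9% of all genes, and 0 beside 0% with median-of-ratios sizes. Leaving out replicate 2 of B6 dam day 24 gave 2 calls, Met (-0.93, adjusted p = 0.011) and Egfr (-0.76, adjusted p = 0.017), and leaving out replicate 1 of IgA-null dam day 24 gave Met (-0.94, adjusted p = 0.035) and Erbb2 (-0.66, adjusted p = 0.046). Scaled, the value of Met was -0.73 (adjusted p = 0.029) without replicate 1 of B6 dam day 24 and -0.23 (adjusted p = 0.33) without replicate 2.

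At day 42, where the dates in the labels were the same, 0 of 8 members and 0% of all genes passed on either scale. No member had an unadjusted p under 0.05, and voom called 0 members and 0% of all genes. Areg alone did not overlap between the dams, lower with the IgA-null dam, against 3.78% of all genes as deposited and 8.22% scaled. Its log2 fold change was -0.61 ± 0.47 (adjusted p = 1) at 2 to 60 reads per library. The receptors differed by -0.12 to 0.13 on the log2 scale as deposited.

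A moderated F test of whether the dams differed unequally across the ages passed for Met alone of the 8 members (F = 11.5, adjusted p = 0.049), with 1.75% of all genes passing. The dam effects behind it were 0.15 at day 14, -0.89 at day 24 and 0.10 at day 42. It did not pass after scaling (F = 4.72, adjusted p = 0.42; 0.139% of all genes), where the 3 effects were -0.23, -0.48 and 0.05. It passed in 5 of the 17 fits that left out 1 library as deposited and in none of them after scaling.

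Libraries of 2 ages did not overlap for 40.8% of all genes from day 14 to 24 and 28.4% from day 14 to 42 with the B6 dam (scaled 38.5% and 33.9%). The shares were 80.9%, 61.8% and 62.6% for day 14 to 24, 24 to 42 and 14 to 42 with the IgA-null dam (scaled 37.8%, 31.5% and 47.6%). These are the shares to set beside each statement on overlap between 2 ages with the same dam. Some statements set pooled libraries of several groups apart, as for Egfr, Insr and Met. For those the share of all genes was not computed.

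Across ages with the B6 dam, the IGF and insulin receptors and Egfr were lower at day 24 than at day 14. Igf1r fell by 0.94 ± 0.27 on the log2 scale (adjusted p = 0.038), from 3.78 ± 0.645 to 1.59 ± 1.01 TPM. Insr fell by 0.72 ± 0.18 (adjusted p = 0.021) and Egfr by 0.70 ± 0.18 (adjusted p = 0.026). These 3 of 8 members stand beside 8.61% of all genes called and 6.99% called lower. Scaled, Igf1r alone passed (-0.65 ± 0.17, adjusted p = 0.025; 13.8% of all genes called, 5.91% lower), and Egfr and Insr were at -0.36 (adjusted p = 0.053) and -0.34 (adjusted p = 0.14). Voom called 2 members with either library size, Igf1r and Insr with total reads (9.53% of all genes) and Igf1r (-0.94, adjusted p = 0.017) and Egfr (-0.51, adjusted p = 0.027) with median-of-ratios sizes (15.6%). Of 6 enteroendocrine markers 3 rose over this step (scaled 6), and of 5 tested tuft markers 3 (scaled 5). Goblet markers rose in 1 of 6 (scaled 3) and Paneth markers in 1 of 6 (scaled 1). Of 6 markers of cycling cells 2 fell (scaled 3), and of 6 stem cell markers Lgr5 and Ascl2 (scaled Lgr5 alone). The 2 tested leukocyte markers and S100b of enteric glia fell on either scale. The part of these markers in the receptor values was not tested. A fit of only the groups compared called 0 members. Without replicate 2 of B6 dam day 24, which leaves 1 library in that group, 0 members passed and Igf1r was at -0.53 (adjusted p = 0.51; scaled -0.42, adjusted p = 0.27). Leaving out any 1 of the 3 B6 dam day 14 libraries left 1 member as deposited, and scaled the Igf1r call was lost without replicate 3 of that group (adjusted p = 0.082). Without replicate 1 of B6 dam day 24, Igf1r was at -1.34 (adjusted p = 0.0066).

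From day 24 to 42 with the B6 dam, limma called 0 of 8 members and 0.0199% of all genes (scaled 0 and 0.0265%). No member had an unadjusted p under 0.05, and voom called 0, beside 0.0223% of all genes with total reads and 0.0298% with median-of-ratios sizes. Over days 14 to 42 limma called 0 members as well, beside 9.11% of all genes (scaled 13.6%). Egfr was nearest, at -0.51 ± 0.16 (adjusted p = 0.067) and scaled -0.33 ± 0.10 (adjusted p = 0.053). As deposited Egfr alone had an unadjusted p under 0.05, and scaled Egfr and Met. Egfr was the 1 member that voom called, with median-of-ratios library sizes (15.2% of all genes).

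Across ages with the IgA-null dam, every tested member fell from day 14 to day 24 as deposited, as did most of the transcriptome, and no fall passed on the scaled values. All 8 members were called lower, beside 82.9% of all genes lower and 83.8% called. The log2 fold changes ran from -0.58 ± 0.22 for Erbb3 (adjusted p = 0.024) to -1.40 ± 0.47 for Areg (adjusted p = 0.012), against a median of all genes of -1.02. Scaled, only Erbb3 passed, and it was higher at day 24, 39.6 to 51.6 against 23.2 to 26.2 scaled TPM (0.88 ± 0.19, adjusted p = 0.0075; 16.6% of all genes called, 8.35% higher). The Erbb3 value was 0.79 to 0.97 when each library was left out and passed each time. As deposited the same gene was called lower, and that call was lost in 4 of 6 such fits.

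From day 24 to 42 with the IgA-null dam, Met rose from 2.36 ± 0.253 to 6.34 ± 0.46 TPM (1.13 ± 0.16, adjusted p = 0.0023). Igf1r rose by 0.93, Egfr by 0.79, Insr by 0.73 and Erbb3 by 0.64, and Erbb2, Btc and Areg did not pass. These 5 of 8 members stand beside 48.5% of all genes called higher and 49.3% called. Scaled, Met alone passed, from 4.11 ± 0.433 to 6.06 ± 0.427 (0.47 ± 0.12, adjusted p = 0.05 when rounded; 2.58% of all genes called, 1.45% higher). The Met call was lost when any 1 of the 6 libraries was left out (0.40 to 0.51). Igf1r was at 0.45 ± 0.15 scaled (adjusted p = 0.11), with no overlap between the ages.

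Over days 14 to 42 with the IgA-null dam, Areg fell by 1.88 ± 0.47 (adjusted p = 0.0078), from 4.07 ± 1 to 0.38 ± 0.252 TPM. Insr fell by 0.55, Egfr by 0.47 and Btc by 0.45. These 4 of 8 members stand beside 38.9% of all genes called lower and 40.7% called. Only the Areg call held when each library was left out; the count was 1 without replicate 1 or 3 of day 14 or replicate 3 of day 42, and 2 without replicate 1 or 2 of day 42. Scaled, Areg was at -1.36 ± 0.60 (adjusted p = 0.14), with libraries that did not overlap (1.81 to 3.16 against 0.0808 to 0.528). On that scale Erbb3 (0.68 ± 0.19, adjusted p = 0.024) and Met (0.53 ± 0.12, adjusted p = 0.0076) were called higher, beside 16.5% of all genes called and 8.4% higher. The Met call held without each library in turn (0.48 to 0.57), and that of Erbb3 in 2 of 6 such fits (0.65 to 0.73).

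**Figure D5:**
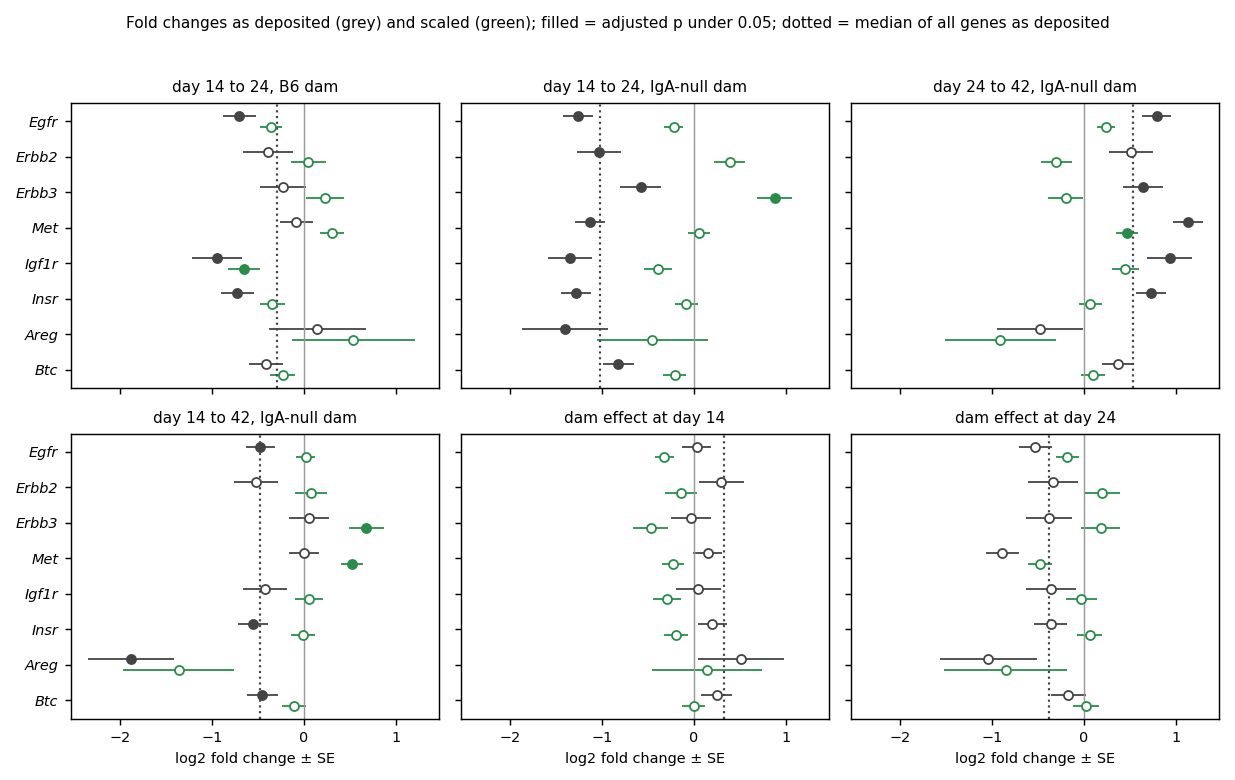
Log2 fold changes with their standard errors (x axis) of the 8 tested members (y axis) in 6 comparisons, as deposited (grey) and scaled (green); filled points have an adjusted p under 0.05 and the dotted line is the median of all genes as deposited. From day 14 to 24 with the IgA-null dam the grey points lie on both sides of that median of -1.02, and Erbb3 is the filled green point at 0.88.

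Of the lists of pathway genes, the steps from day 14 to 24 are given first. Of 16 other ligands, receptors and binding proteins of the MET, IGF and insulin branches, 3 passed the filter: Mst1r, Igf2r and Igfbp4. Igfbp4, which binds and holds insulin-like growth factors, fell from day 14 to 24 with both dams on both scales. With the B6 dam it went from 13.8 ± 2.79 to 5.09 ± 3.88 TPM (-1.43, adjusted p = 0.019; scaled -1.05, adjusted p = 0.011) and in IgA-null dam pups from 20 ± 5.36 to 3.14 ± 1.24 (-2.35, adjusted p = 3.0e-05; scaled -1.07, adjusted p = 0.0058). Igf2r, which clears IGF2 from the cell surface, fell over the same step with the B6 dam (-1.12, adjusted p = 0.017; scaled -0.68, adjusted p = 0.025). With the IgA-null dam it was called as deposited (-1.60) and not after scaling (-0.21, adjusted p = 0.38).

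Of 22 inhibitors and feedback regulators of these receptors, 19 were tested. From day 14 to 24 with the B6 dam, 3 fell and 1 rose on either scale, beside 8.61% of all genes called (scaled 13.8%). The list's median in this step was -0.33 against -0.29 for all genes (scaled 0.04 against 0.01). In pups of the IgA-null dam 17 of 19 fell as deposited, beside 82.9% of all genes, and scaled 3 fell and 2 rose, beside 16.6% called (medians -1.17 and 0.05 against -1.02 and -0.02 for all genes). Grb10, an adaptor that damps insulin and IGF receptors, fell from 1, 0.902 and 0.957 TPM at day 14 to 0.096 and 0.0813 at day 24 with the B6 dam. Its scaled log2 fold change was -0.71 (adjusted p = 0.0021) in B6 dam pups and -0.83 (adjusted p = 4.5e-04) in IgA-null dam pups. Cblb, a ubiquitin ligase that sends activated receptors to degradation, went from 4.74 ± 0.214 to 1.72 ± 0.494 TPM in B6 dam pups, and in IgA-null dam pups from 6.85 ± 1.17 to 1.35 ± 0.256 (scaled -0.76 and -0.63, adjusted p = 8.1e-05 and 2.0e-04). Spry1, an inhibitor of ERK signalling, fell too (scaled -0.71 and -0.73, adjusted p = 0.024 and 0.012). Socs3, a suppressor of cytokine receptors that also binds the insulin receptor, rose with the B6 dam from 2.33 ± 0.0754 to 9.49 ± 4.18 TPM (1.60, adjusted p = 0.006; scaled 1.97, adjusted p = 0.0072). Its 2 day 24 values there were 6.02 and 18.4 scaled TPM, the higher in the library that was high for Areg. In IgA-null dam pups Socs3 was called higher on the scaled values and not as deposited. It went from 1.44, 2.25 and 1.94 to 7.54, 8.56 and 9.89 scaled TPM. Between the dams, 0 of these 19 genes were called at any age on either scale. Of all genes, 8.68% were called at day 14 (scaled 2.97%), 0.0265% at day 24 (scaled 0%) and 0% at day 42 on either scale.

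Of 11 genes of ligand shedding and HGF activation, 10 were tested. Hgfac, a protease that activates HGF, was called between the dams on both scales, at day 14, beside 8.68% of all genes (scaled 2.97%). It read 1.15, 1.15 and 1.39 TPM in B6 dam pups and 5.17, 3.68 and 5.18 TPM in IgA-null dam pups (1.34 ± 0.22, adjusted p = 0.0031; scaled 0.92 ± 0.16, adjusted p = 0.014). Its groups at days 24 and 42 overlapped between the dams, and the difference between ages passed as deposited (adjusted p = 0.036) and not after scaling (adjusted p = 0.18). The secretory cell markers given with the day 14 comparison rose in the same libraries, and their part in the Hgfac value was not tested. On the scaled values alone, Timp3, an inhibitor of sheddases (-0.87, adjusted p = 0.031), and Igf2r (-0.67, adjusted p = 0.044) were called lower at day 14 with the IgA-null dam. From day 14 to 24 with the B6 dam, 2 of the 10 fell, Timp3 and Rhbdf1, and Hgfac rose (median -0.03), and scaled St14 rose too (median 0.38). These calls stand beside 8.61% of all genes called (scaled 13.8%). With the IgA-null dam 10 of 10 fell over this step as deposited, Hgfac included, beside 82.9% of all genes. Scaled, 2 rose and 1 fell among St14, Rhbdf1 and Hgfac, beside 16.6% of all genes called. Hgfac was higher at day 24 on that scale (3.56 to 5.96 against 2.61 to 3.14 scaled TPM). Of 28 adaptors and members of the ERK and PI3K arms, 27 were tested and 0 were called between the dams. The shares of all genes were 8.68% at day 14 (scaled 2.97%), 0.0265% at day 24 (scaled 0%) and 0% at day 42. From day 14 to 24 with the B6 dam, 1 fell as deposited (Gab1, the adaptor of MET and EGFR, -0.80, adjusted p = 0.0068; scaled -0.42, adjusted p = 0.092), and scaled 2 others rose, Hras and Map2k1. Of all genes, 8.61% were called in this step (scaled 13.8%). The list's median was -0.37, and 0.02 scaled. In pups of the IgA-null dam 26 of 27 fell as deposited, beside 82.9% of all genes, and 3 rose scaled, beside 8.35% (medians -1.11 and 0.08 against -1.02 and -0.02 for all genes). Of 12 genes known to be induced through ERK, 9 were tested. From day 14 to 24 with the B6 dam 0 were called on either scale (medians -0.00022 and 0.18), beside 8.61% of all genes (scaled 13.8%). In pups of the IgA-null dam 6 of 9 fell as deposited, beside 82.9% of all genes, and 0 were called scaled (medians -0.98 and -0.11 against -1.02 and -0.02 for all genes). Phlda1, one of them, passed the test of the dam effect across ages as deposited (adjusted p = 0.032) and not scaled (adjusted p = 0.41).

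The genes whose scaled log2 values ran most like each member over the 17 libraries, among genes with a mean of at least 5 TPM, were sought as a description. The 3 highest Pearson correlations of each follow. For Igf1r they were with Maged1 (0.953), Ephb2 (0.943) and Prrc2b (0.941). For Met they were with Bmpr1a (0.936), Man1b1 (0.901) and Plpp6 (0.878). Erbb3 ran most like Nucb1 (0.935), Tapbp (0.931) and Sqstm1 (0.922), and Erbb2 most like Kif1c (0.885), Slu7 (0.873) and Gpc4 (0.871). The genes nearest to Egfr were Cps1 (0.916), Lhpp (0.881) and Oxa1l (0.875), and those nearest to Insr Nol4l (0.893), Ugt1a1 (0.852) and Tmem184a (0.827). Among the ligands, Areg ran most like Atp2b1 (0.903), Slc7a8 (0.879) and Acsl5 (0.873). Btc had the lowest likeness of the 8, with Araf (0.75), Rps13-ps2 (0.718) and Hp1bp3 (0.66). Among the 28 pairs of tested members the highest correlations were between Erbb2 and Erbb3 (0.78) and between Egfr and Igf1r (0.74), and the lowest between Erbb2 and Igf1r (-0.59). The libraries share age groups, depth and size factors, so these values carry no p.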

How the data were processed

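RNA was measured in 17 libraries of sorted small-intestinal epithelium. Per the labels' protocols, RNA was amplified with a SMART-seq v4 kit and made into Nextera XT libraries. Such libraries do not mark strand. The deposited values are TPM made by the authors. Per the submitters' processing notes, the build was mm10 and the tools included Bowtie2, Subread and DESeq2, with no version given.

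Multiplying TPM by GENCODE M21 exon lengths gave whole reads for 93.6% of values (within 0.01 reads or a relative 1e-04), and for each of the 9 members. Intervals and floors cover counting error only. The test was limma 3.58.1 (R 4.3.3) on log2(TPM + 1) with its trend option, as 1 fit of 6 groups over 15066 genes, with Benjamini-Hochberg adjustment over all of them. A threshold of 0.05 was used. Fold changes on that scale understate the change of low genes. Scaled values were fitted the same way. Tables were made in Python 3.11.15 with pandas 2.3.3 and numpy 2.4.6. The test was also run on simulated data that held no general shift of all genes between groups. That run therefore says nothing about the choice between deposited and scaled values.

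All 9 members are named. From 6 pathway lists at most 4 called genes per list and comparison are named, in order of p. The levels of Hbegf and Dusp6 by library were picked out after their values were seen. The members and lists were chosen with earlier results of these data known. Alternatives were other pseudocounts, filters, scalings, voom, only the compared groups, a replicate block and leaving out each library. Voom with median-of-ratios sizes was added after seeing the data.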

Additional observations from a re-analysis of the deposited data

Results flagged for a closer look

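Met was singled out because its difference between the dams differed between ages by a test of that difference (moderated F = 11.5, limma adjusted p = 0.049). The dam effects were 0.15 at day 14, -0.89 at day 24 and 0.10 at day 42 on the log2 scale. Scaled, F was 4.72 (adjusted p = 0.42) and the effects were -0.23, -0.48 and 0.05. Groups of 2 or 3 libraries are too small for a test of single outlying libraries.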

How the results depend on the processing

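Over 10 settings that kept all libraries, 220 values of 23 member comparisons were recomputed: 136 kept their direction and side of the threshold, 64 lost the call, 6 gained it and 14 reversed. The cause was not tested. Calls of members moved as follows. For the dams at day 24, 0 calls became 1 (Met) with a pseudocount of 0.1 or a TPM filter of 5 and 3 with voom. For day 14 to 24 with the B6 dam, 3 became 1 with the filter of 5 or with scaling, 0 with only the compared groups, 0 with the replicate block and 2 with either voom fit. For day 14 to 42 with that dam, 0 became 1 with scaled voom. With the IgA-null dam, the 8 calls of day 14 to 24 became 5 of 5 members tested with the filter of 5, the 5 of day 24 to 42 became 3, and both became 1 with scaling, without mitochondrial and the 50 highest genes, or with scaled voom. The 4 of day 14 to 42 became 2 with a pseudocount of 0.1, no filter, the filter of 5 or any of those 3 scalings, and 1 with voom. The Met call between ages became 0 with a pseudocount of 0.1, no filter, those 3 scalings or the block.

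Reversals came with scaling, left-out genes and scaled voom, in that order. From day 14 to 24 with the IgA-null dam these were Erbb2 (0.39, 0.19 and 0.39), Erbb3 (0.88, 0.68 and 0.89) and Met (0.06 with scaling and scaled voom). Erbb3 from day 24 to 42 became -0.20 with scaling and scaled voom. From day 14 to 42 Egfr became 0.02, 0.04 and 0.02, and Insr 0.01 with left-out genes.

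Leaving out 1 library gave 0 to 2 calls for the dams at day 24 (scaled 0 to 1), 0 to 3 for day 14 to 24 with the B6 dam (scaled 0 to 4), 0 to 0 for day 24 to 42 (scaled 0 to 1) and 0 to 1 for day 14 to 42 (scaled 0 to 1). With the IgA-null dam the counts were 6 to 8 (scaled 1 to 2), 4 to 6 (scaled 0 to 0) and 1 to 4 (scaled 1 to 2), and for the difference between ages 0 to 2 (scaled 0 to 0). Together with scaling, leaving out single libraries gave these reversed values with the IgA-null dam. Erbb2 from day 14 to 24 was at 0.45, 0.34, 0.37, 0.22, 0.42 and 0.54. Erbb3 from day 14 to 24 was at 0.93, 0.85, 0.85, 0.79, 0.88 and 0.97. Met from day 14 to 24 was at 0.01, 0.09, 0.08, 0.13, 0.03 and 0.02. Erbb3 from day 24 to 42 was at -0.11, -0.20, -0.30, -0.22, -0.23 and -0.15. Egfr from day 14 to 42 was at 0.0038, 0.04, 0.02, 0.02, 0.02 and 0.03. Insr from day 14 to 42 was at 0.02 and 0.0028. As deposited, Erbb3 from day 14 to 42 ranged from -0.06 to 0.15 and Met from -0.05 to 0.10. Where 1 library remained in a group, it was assumed to vary like the other groups.

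Same-numbered libraries of different groups deviated with correlations of -0.65 to 0.26 over 40 pairs, so the numbers are not taken to pair them. The replicate block moved 0 calls at days 14, 24 and 42 between the dams and left 8, 5 and 3 calls in the IgA-null age steps. Depth limits Areg and Ereg most, at 2 to 227 and 0 to 57 reads.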
